A study of Ciona robusta with 12 samples.

Results

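The comparison described here set Ciona robusta embryos exposed to U0126 against embryos exposed to its carrier DMSO at the 112-cell stage. It used 6 of the 12 RNA sequencing libraries of the study, 3 from U0126 embryos and 3 from DMSO embryos, taken from the read-count columns of the 112-cell table and paired by replicate number. Ciona robusta is a tunicate, whose embryo has few cells with fixed lineages. Per the labels, embryos grown at 21 °C in artificial seawater received U0126 at 4 mM or DMSO diluted 1:1000 at the 32-cell stage, and 300 whole embryos went into each library. The dose is repeated as labelled, and whether its unit is right could not be checked. The labels name no genotype, clutch, collection day or sequencing run. The p-values of the paired test therefore measure only how the differences within these pairs vary, estimated partly across genes of a similar level. Those of fits without the pairing measure the spread between these samples. The other 6 libraries came from the 64-cell stage under the same treatments and appear here only where a gene found at 112 cells was followed back to them.

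U0126 inhibits MEK, the kinase that phosphorylates and activates ERK. In the early ascidian embryo, fibroblast growth factor (FGF) signals act through MEK and ERK in some cells and not in their sister cells, and the cells with active ERK take notochord, neural or mesenchyme fates. The transcription factor Brachyury, named in the study's title, is switched on in notochord precursors downstream of this pathway. The deposited tables name genes by KH2012 identifiers only and pair none of them with a gene name. The gene reference table used here held 0 of these identifiers, so no gene below is given a name or a function and no sequence is shown. At most 2 falling and 2 rising identifiers are printed, and the other genes are described by their number, level and size of change. Libraries were made from whole embryos, in which fewer cells expressing a gene and less RNA per cell cannot be told apart.

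The deposited values are read counts divided by a size factor for each library, called normalized counts here. The 6 libraries held 10623872 to 15956670 reads over genes, and 3 reads, the upper limit that a count of 0 allows, correspond to a normalized count of 2.42 to 3.29. DMSO replicate 3, the library with the fewest reads, stood apart from the rest. In that library 234 genes were at least 4-fold below all 5 other libraries and 6 were at least 4-fold above them, on the scale of the normalized count plus 1. The other 5 libraries each had 1 to 12 genes below and 0 above by this measure. The 234 genes had a median normalized count of 26.3 in DMSO replicate 3, against a median of 331 for their level across the other 5 libraries. None of them was among the genes called in either direction by the paired test, which called 0.433% of all genes tested. Genes chosen for 1 deviating library differ widely between pairs, which makes a call unlikely. Their absence thus says little about how far this library affected the calls.

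**Figure D1:**
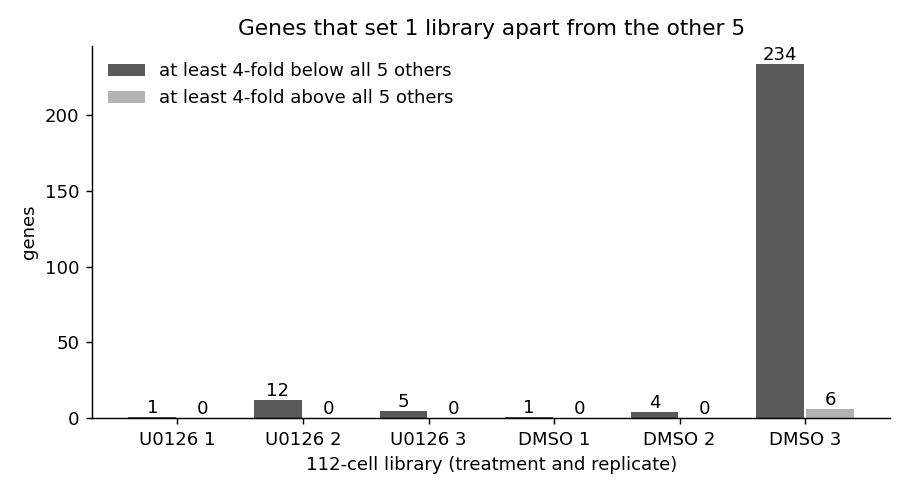
Number of genes (vertical axis) at least 4-fold below or above all 5 other libraries, for each 112-cell library on the horizontal axis (treatment and replicate number). DMSO replicate 3 had 234 genes below the others, while the remaining libraries had 1 to 12.

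Falls were more numerous than rises in the paired test and, at the median, larger. With the replicate number as a block, 45 of 11315 genes tested were lower in U0126 embryos and 4 were higher (limma, Benjamini-Hochberg adjusted p under 0.05). This is a share of 0.398% for falls and 0.0354% for rises. All 45 falls were at least 2-fold, 33 were at least 8-fold and 13 at least 32-fold, on the log2(normalized count + 1) scale, which understates changes of low genes. Their log2 fold changes ran from -7.19 to -1.35 with a median of -3.77, while the median over all genes tested was 0.00 to 2 decimals and 50.4% of all genes had a negative value. The 4 rises ran from 1.69 to 3.05. Summed over the 45 falling genes, the normalized count was 2010, 1934 and 1839 in U0126 replicates 1 to 3, against 18340, 18056 and 17659 in DMSO replicates 1 to 3. The DMSO sum was thus close to even over the 3 libraries, DMSO replicate 3 included, and was 9.35 times the U0126 sum. Single falling genes were less even. DMSO replicate 3 was the lowest DMSO library in 21 of them and the highest in 21. On the log2 scale it differed from the mean of the other DMSO libraries by -2.19 to 2.74 in these genes. In each of the 45 genes every U0126 library lay below every DMSO library, as was so for 9.86% of all genes tested. The 4 rises had every U0126 library above every DMSO library, as had 12.1% of all genes.

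**Figure D2:**
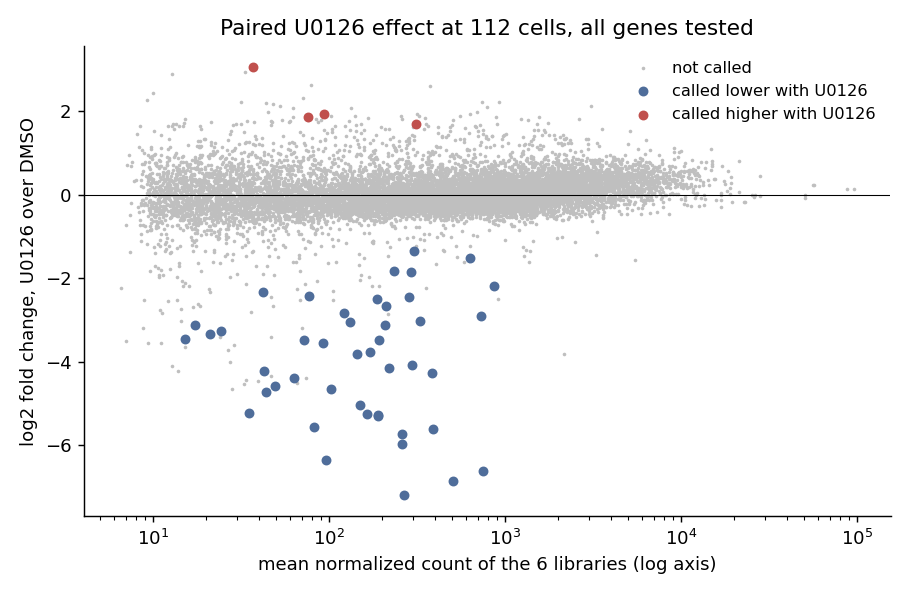
Log2 fold change of U0126 over DMSO (vertical axis) against the mean normalized count of the 6 libraries (horizontal log axis), 1 point per gene tested. The 45 falls reach down to -7.19, the 4 rises reach up to 3.05, and no gene with a mean of 1000 or more was called.

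Among the called genes, the largest loss in mean normalized count was that of KH.C11.577. It was at 14.1, 12.9 and 15.1 normalized counts in U0126 replicates 1 to 3, against 1467, 1326 and 1679 in DMSO replicates 1 to 3. The groups were far apart, and the U0126 libraries held 13 or 14 reads of this gene each. Its mean was 14.02 ± 1.06 in U0126 embryos and 1491 ± 178 in DMSO embryos (SD, n = 3 each), which leaves 0.941% of the DMSO level. The log2 fold change was -6.63 (SE 0.14, limma adjusted p = 0.00163), and the gene kept its call under all 23 alternatives, with a limma, edgeR or DESeq2 adjusted p of 4.14e-90 to 0.00477. The pairs gave log2 differences of -6.60, -6.57 and -6.71, so the fall was of nearly the same size in each. At the 64-cell stage, in separate libraries, this gene was at 10.5, 20.6 and 9.29 normalized counts in U0126 embryos, against 148, 410 and 295 in DMSO embryos. It was therefore already low under U0126 at the earlier stage (log2 fold change -4.26, SE 0.18), and the DMSO level was higher at 112 cells.

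KH.C13.28 had the next largest loss among the called genes and was only partly reduced. It was at 374, 308 and 190 normalized counts in U0126 replicates 1 to 3, against 1963, 1787 and 593 in DMSO replicates 1 to 3. The groups did not overlap, but replicate 3 was the lowest library within each treatment, and DMSO replicate 3 was far below the other DMSO libraries. The mean was 291 ± 93.2 in U0126 embryos and 1448 ± 746 in DMSO embryos (SD, n = 3 each), or 20.1% of the DMSO level. With the pairs the log2 fold change was -2.18 (SE 0.21, limma adjusted p = 0.0485). Without the block the same fold change had a limma adjusted p of 0.183, and without the block and DMSO replicate 3 it was -2.74 with an adjusted p of 0.0110. Over the 23 alternatives the adjusted p ran from 1.40e-15 to 0.772, and 12 of them called the gene. At 64 cells it was at 276, 365 and 186 in U0126 embryos and 352, 466 and 284 in DMSO embryos, each U0126 library being lower than the DMSO library of its number.

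**Figure D3:**
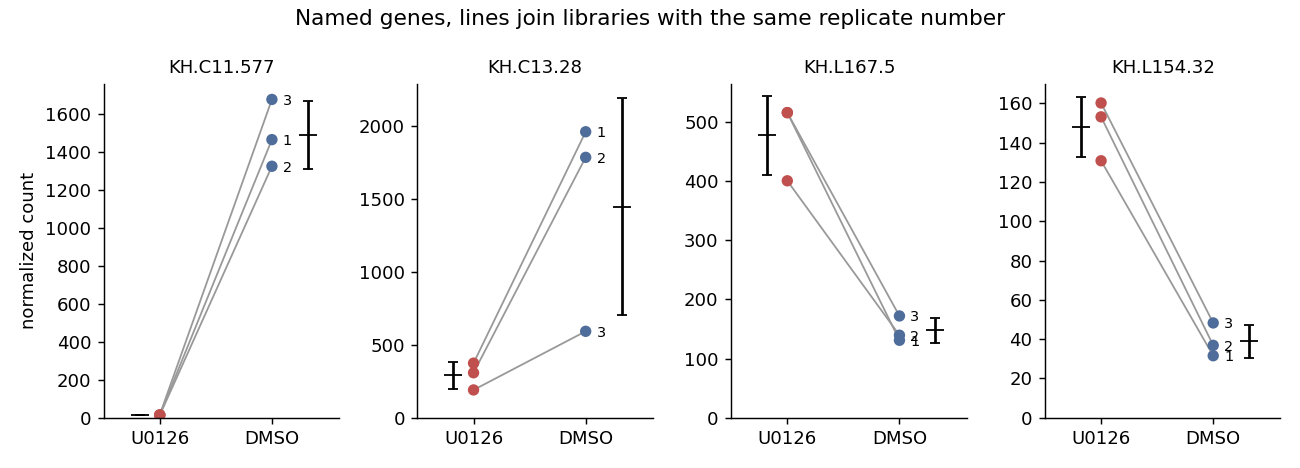
Normalized counts (vertical axes, each from 0) of the genes named here in U0126 and DMSO libraries at 112 cells, with grey lines joining libraries of the same replicate number, digits giving that number beside the DMSO points, and bars showing the mean ± SD of 3 libraries. KH.C11.577 and KH.C13.28 were lower in U0126 embryos in all 3 pairs, and KH.L167.5 and KH.L154.32 higher.

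The falling genes ranged from near-complete to moderate loss, as seen from the U0126 mean as a share of the DMSO mean. For 9 genes under 2% of the DMSO level was left. Their summed normalized counts were 70.4, 50.7 and 72.0 in U0126 replicates 1 to 3, against 5127, 4727 and 5865 in DMSO replicates 1 to 3. These genes were well expressed in DMSO embryos, with means of 69.2 to 1491, and had U0126 means of 1.00 to 15.1, which range from below the limit that 3 reads set to several times above it. For 21 genes 2% to 10% was left, and their sums were 295, 239 and 235 in U0126 embryos and 5152, 4892 and 5091 in DMSO embryos. For 11 genes 10% to 25% was left, with sums of 992, 802 and 836 in U0126 embryos and 5948, 5907 and 4721 in DMSO embryos. The remaining 4 genes kept 27.4% to 38.7% of the DMSO level, with sums of 653, 842 and 695 in U0126 embryos against 2112, 2530 and 1981 in DMSO embryos. The sums had to stay apart in each class, because each of these genes had every U0126 library below every DMSO library. They also had to be nearest in the last class, because the classes were cut by the share of the DMSO level left. No gene had 0 reads in all U0126 libraries, 2 had 0 reads in at least 1 of them, and 4 had at most 3 reads in each, so the exact depth of those falls depends on the pseudocount.

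**Figure D4:**
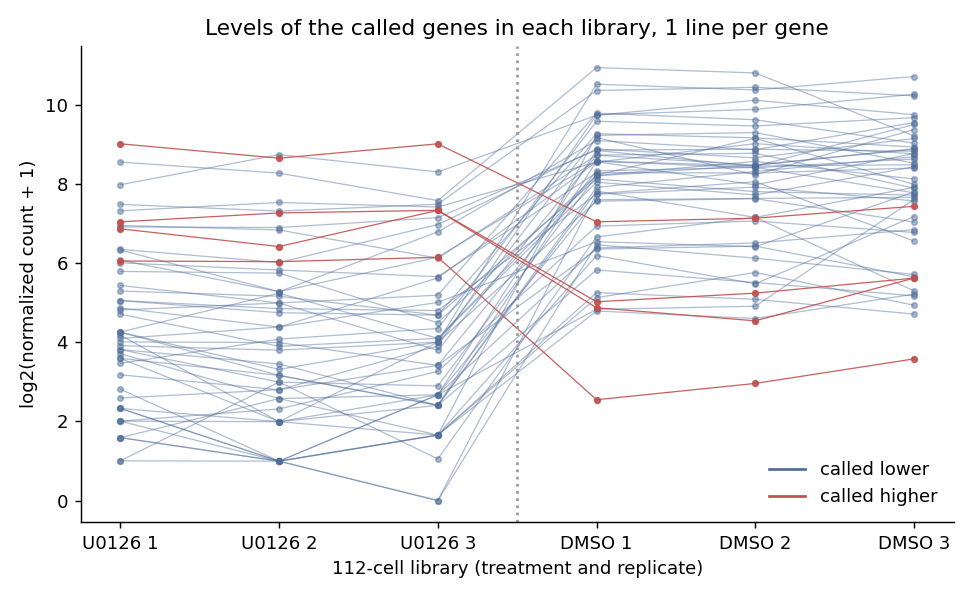
Level of each of the 49 called genes in each 112-cell library, as log2(normalized count + 1), with 1 line per gene and the U0126 libraries left of the dotted line. The lines of the 45 falling genes are higher in every DMSO library than in any U0126 library, and those of the 4 rising genes lower, with some lines uneven within a treatment.

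Called genes were spread unevenly over the levels of expression. Of 1924 genes with a mean under 50 normalized counts over the 6 libraries, 9 fell and 1 rose. Of 2051 genes with a mean of 50 to 200, 17 fell and 2 rose, and of 3859 with a mean of 200 to 1000, 19 fell and 1 rose. Among the 3481 genes with a mean of 1000 or more, limma called 0, with 128 at an unadjusted p under 0.05, edgeR called 0 and DESeq2 called 37. In this abundant set 6 genes were at least 2-fold lower and 4 at least 2-fold higher in all 3 pairs. Abundant genes also lay slightly above 0 as a set. A median log2 fold change of 0.31 was found for the 480 genes with a mean of 5000 or more, with 0.14, 0.11 and 0.68 in pairs 1 to 3. It was -0.08 for genes with a mean of 200 to 1000, so the offset was largest in the pair that holds DMSO replicate 3. The filter asked for a normalized count of at least 10 in 3 of the 6 libraries. It let in 62 genes under 10 in every U0126 library, which passed through their DMSO level alone and so had to be lower, and 13 of the 45 falls were among them. It likewise let in 17 genes under 10 in every DMSO library, of which 0 were called.

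Rises were few and moderate in the paired test. KH.L167.5, the rise with the largest gain of transcript, was at 516, 401 and 516 normalized counts in U0126 replicates 1 to 3, against 131, 140 and 172 in DMSO replicates 1 to 3. The groups were well separated, and the mean was 478 ± 66.6 in U0126 embryos and 147 ± 21.7 in DMSO embryos (SD, n = 3 each), a ratio of 3.24. Its log2 fold change was 1.69 (SE 0.16, limma adjusted p = 0.0425), with 0.0196 without the block and 1.25e-09 to 0.144 over the alternatives, 15 of 23 of which called it. KH.L154.32 was at 131, 153 and 160 normalized counts in U0126 replicates 1 to 3, against 31.5, 36.8 and 48.2 in DMSO replicates 1 to 3. Its mean was 148 ± 15.4 in U0126 embryos and 38.9 ± 8.54 in DMSO embryos (SD, n = 3 each), a ratio of 3.81. The log2 fold change was 1.92 (SE 0.18, limma adjusted p = 0.0425), with 0.0305 without the block and 2.06e-07 to 0.208 over the alternatives, 16 of 23 of which called it. In the fits without the block, both genes lost their call when 1 library was left out, unless that library was DMSO replicate 3, with limma adjusted p-values of 0.0647 to 0.144 for KH.L167.5 and 0.116 to 0.208 for KH.L154.32. Without DMSO replicate 3 these were 0.0105 and 0.0153.

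The other two rises were a gene with means of 120 ± 38.03 in U0126 embryos and 32.9 ± 13.6 in DMSO embryos, and a gene with 66.6 ± 2.84 in U0126 embryos and 7.53 ± 3.12 in DMSO embryos (SD, n = 3 each). The last of these had the largest rise, a ratio of 8.85, and was at 65.4, 64.6 and 69.9 normalized counts in U0126 replicates 1 to 3, against 4.85, 6.78 and 10.96 in DMSO replicates 1 to 3. Summed over the 4 rising genes, the normalized count was 828, 703 and 906 in U0126 replicates 1 to 3, against 196, 205 and 279 in DMSO replicates 1 to 3. DMSO replicate 3 was the highest DMSO library for all 4, so it reduced these differences.

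The size of the change within each pair showed how evenly losses and gains recurred. At least 4-fold falls numbered 91 genes in pair 1, 123 in pair 2 and 138 in pair 3, and at least 4-fold rises numbered 27, 25 and 379. At this size falls outnumbered rises in pairs 1 and 2, and rises outnumbered falls in pair 3. At the 2-fold level pair 1 was even, with 238 falls and 237 rises, while pair 2 had 298 and 186 and pair 3 had 974 and 1588. All 234 genes that were low in DMSO replicate 3 were among the 379, which follows from how they were chosen. Their median log2 difference was 3.23 in pair 3, 0.10 in pair 1 and 0.30 in pair 2. The log2 differences over all genes had an SD of 0.49, 0.54 and 1.02 in pairs 1 to 3, so pair 3 was the widest. In all 3 pairs, 65 genes were at least 4-fold lower, which is 0.574% of the genes tested, and 2 were at least 4-fold higher, which is 0.0177%. At the 2-fold level 136 genes (1.2%) were lower and 51 (0.451%) higher in all 3 pairs.

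**Figure D5:**
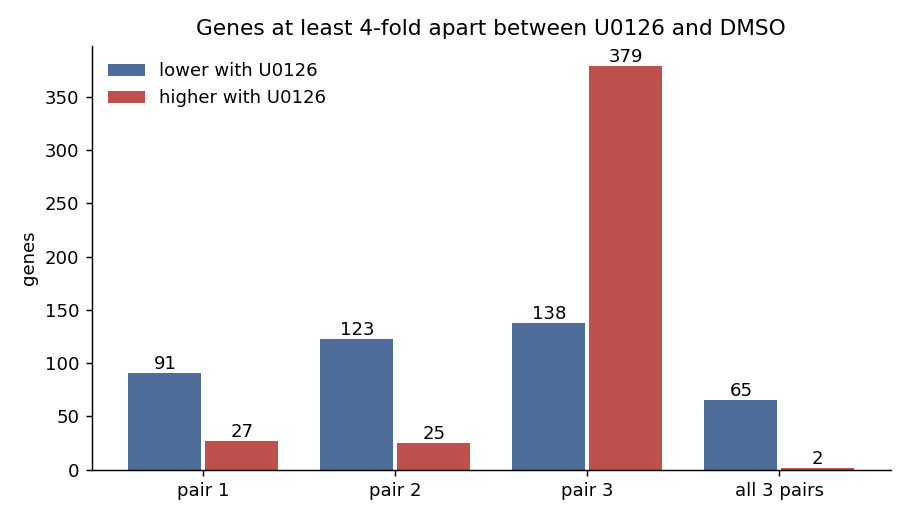
Number of genes (vertical axis) at least 4-fold lower or higher in the U0126 library than in the DMSO library of the same replicate number, and in all 3 pairs together. The counts of falls are 91, 123 and 138, those of rises 27, 25 and 379, and 65 falls and 2 rises recur in all 3 pairs.

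Large losses found in 2 pairs were mostly found again in the remaining pair. The filter on low values fixes the direction of the 62 and 17 genes that it admitted through 1 treatment alone, so recurrence was counted over the other 11236 genes. Of these, 34 were at least 4-fold lower and 2 at least 4-fold higher in all 3 pairs. Of the 43 genes at least 4-fold lower in both pairs 1 and 2, 34 (79.1%) were also at least 4-fold lower in pair 3, where 0.837% of the 11236 were. Of the 36 genes lower by this much in both pairs 1 and 3, 34 were so in pair 2 as well (94.4%, against 0.721%), and of the 45 in both pairs 2 and 3, 34 were so in pair 1 (75.6%, against 0.454%). Large gains were few. Of the 7 genes at least 4-fold higher in both pairs 1 and 2, 2 were also at least 4-fold higher in pair 3, where 3.34% of the 11236 were. At the 2-fold level, 84 of the 117 genes lower in both pairs 1 and 2 were also at least 2-fold lower in pair 3 (71.8%, against 8.17%), and 44 of the 75 higher ones were at least 2-fold higher there (58.7%, against 14%). The difference between these shares for falls and rises was not tested.

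Some genes with a large and recurring change were not called. Of the 65 genes at least 4-fold lower in all 3 pairs, 40 were called and 25 were not, with limma adjusted p-values of 0.0526 to 0.285. These 25 were low genes, with a median level of 2.46 normalized counts in U0126 embryos and 54.6 in DMSO embryos. Of the 65, only 34 were among the 11236 genes that the filter did not admit through 1 treatment alone. For the others the filter had fixed the direction. Of the 51 genes at least 2-fold higher in all 3 pairs, 4 were called and 47 were not, with limma adjusted p-values of 0.0526 to 0.418. The 47 had a median level of 136 normalized counts in U0126 embryos and 38.4 in DMSO embryos and a median log2 fold change of 1.68, close to that of the called rises. The paired fit had 2 residual degrees of freedom.

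Leaving out DMSO replicate 3 kept most of the losses and brought in many more gains. A paired fit cannot use U0126 replicate 3 without its partner, so the library was first left out of the fit without the block. With all 6 libraries that fit called 60 genes lower (0.53%) and 23 higher (0.203%), and without DMSO replicate 3 it called 76 lower (0.672%) and 59 higher (0.521%). Of the 45 falls of the paired test 41 were still called, as were all 4 rises. Rises thus made up 43.7% of the calls without this library, against 27.7% in the same fit with it and 8.16% in the paired test. The 59 rises were mostly moderate, with a median log2 fold change of 1.41, 48 at least 2-fold and 11 at least 4-fold. The 76 falls had a median of -2.71, with 70 at least 2-fold and 48 at least 4-fold. Leaving out any other single library from this fit reduced the counts instead. They were 19 lower and 1 higher without DMSO replicate 1, 22 and 1 without DMSO replicate 2, 30 and 0 without U0126 replicate 1, 31 and 3 without U0126 replicate 2, and 25 and 0 without U0126 replicate 3. The paired fit without replicate 3 of both treatments called 457 genes lower (4.04%) and 796 higher (7.03%), with all 45 falls and all 4 rises among them. It called 121 lower and 97 higher without replicate 1, and 114 and 130 without replicate 2. These fits of 2 pairs have 1 residual degree of freedom, so their calls rest mainly on a spread estimated across genes of a given level. Without replicate 3, the median log2 fold change of the 796 rises was 0.29, against -0.79 for the 457 falls.

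The 55 rises that the paired test had not called had a median log2 fold change of 1.33 there. The level of DMSO replicate 3 in the 59 rises was 0.29 above the mean of the other DMSO libraries on the log2 scale at the median, with a range of -3.09 to 2.20, against a median of -0.02 over all genes tested. In the 76 falls it was 0.30 below at the median, from -2.19 to 1.34. In both sets DMSO replicate 3 therefore tended to lie nearer to the U0126 level than the other DMSO libraries did, a tendency that the choice of genes without that library favours.

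The 64-cell libraries, which share no library with the 112-cell comparison, often showed these genes changed with the same sign. Of the 59 rises called without DMSO replicate 3, 48 could be tested at 64 cells, and 46 of them had a positive log2 fold change there, with a median of 0.76, whereas 53.0% of all 10792 genes tested at that stage were positive with a median of 0.01. Of the 76 falls, 61 could be tested at 64 cells and 49 were negative, with a median of -0.38. Among the 45 falls of the paired test, 29 could be tested at 64 cells, 25 were negative with a median of -0.80, and a paired fit of that stage called 16 of them lower (0.658% of all genes were called lower there). That fit treats the spread as common to genes of a given level, so its calls rest on that assumption. Of the 4 rises of the paired test, 3 could be tested at 64 cells, and the same fit called 0 of them higher. It called 75 of all 10792 genes higher there, so 0 of 3 says little about these rises. Their log2 fold changes there were positive for 2 and negative for 1, with a median of 0.09. KH.L167.5 was at 0.70 and KH.L154.32, the negative gene, at -0.58. The median loss at 64 cells was larger in the classes with the deeper loss at 112 cells. Of the 9 genes that kept under 2%, 6 could be tested at 64 cells and 4 were called lower there, with a median log2 fold change of -2.64 over the 6. The 11 tested genes of the class that kept 2% to 10% had a median of -1.45, the 8 of the class that kept 10% to 25% had -0.53, and the 4 least reduced genes had -0.08. These medians of small sets are a description, and their differences were not tested.

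On a scale common to all 12 libraries, the 45 falling genes had a median level of 14.7 normalized counts in U0126 embryos and 337 in DMSO embryos at 112 cells. At 64 cells the medians were 8.09 in U0126 embryos and 33.2 in DMSO embryos. Most of the distance between the treatments at 112 cells thus lay above what DMSO embryos had reached at 64 cells. The 4 rising genes had medians of 141 in U0126 embryos and 37.4 in DMSO embryos at 112 cells, and of 17.98 in U0126 embryos and 16.6 in DMSO embryos at 64 cells. The authors normalized the stages separately, and stage coincides with the deposited table.

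Using the 64-cell libraries to estimate the spread gave longer lists around the same core. A fit of all 12 libraries with the replicate number shared by the 4 groups left 6 residual degrees of freedom, and called 168 genes lower (1.47%) and 76 higher (0.667%) at 112 cells, out of 11401 tested. All 45 falls and 3 of the 4 rises of the paired test were among them. Without DMSO replicate 3, this fit called 233 genes lower (2.04%) and 183 higher (1.61%), with all 45 falls and all 4 rises included. In that fit the 188 falls that the paired test had not called had a median log2 fold change of -1.21, and the 179 such rises had one of 0.71. Falls of at least 4-fold numbered 87 in that fit and 85 with DMSO replicate 3, and rises of at least 4-fold numbered 11 and 10. In the fits without the block these were 48 falls without DMSO replicate 3 and 50 with it, and 11 and 4 rises. Falls of at least 4-fold thus outnumbered rises of that size in all 4 of these fits. The fits share most of their 112-cell libraries, so they do not repeat the result independently. Their falls also include genes that the filter admitted through the DMSO level alone, whose direction was fixed.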

How the data were processed

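RNA was sequenced from whole embryos with a stranded mRNA kit, per the labels' protocols. Per the file headers, the authors deposited counts normalized to library size (a signal, never negative) and regularized log2 values for 15284 gene models. The submitters' processing notes name TopHat2 2.9.8b and DESeq 1.8.1. Which counter, strand setting and build they used is not given in the sources used here. Overlapping, antisense and near-identical genes are therefore uncertain. All normalized counts were whole multiples of a library's smallest value, within 0.01, so whole reads were recovered by division (100% of values).

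The 112-cell libraries were compared with limma (version 3.58.1, R 4.3.3), modelling log2 of the normalized count plus 1 with treatment, the replicate number as a block and a mean-dependent variance. Genes needed a normalized count of 10 in 3 of 6 libraries. A call required an adjusted p (Benjamini-Hochberg) below 0.05. The numbers were taken to pair the samples because the comparison was defined as paired. In earlier results of these data, libraries of the same number had also deviated together. Checked again, deviations from the group means correlated across genes at r = 0.644, 0.710 and 0.395 for replicates 1 to 3. Between different numbers r was -0.490 to -0.102. Deviations within a group cancel, so these negative values are not independent of the positive ones. What a number stands for is not in the labels. edgeR 4.0.16 and DESeq2 1.42.0 were run on the recovered reads as alternatives. The steps were tested on simulated data. All simulated libraries had the same spread, so the test did not cover a library that stands apart as DMSO replicate 3 does. Named genes were the 2 with the largest loss and the 2 with the largest gain in mean normalized count among genes called and changed alike in 3 pairs. Members, lists and tests were chosen with earlier results of these data known. Intervals and limits from counts cover counting error only.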

Additional observations from a re-analysis of the deposited data

How the results depend on the processing

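Of 23 alternatives, 3 of which were added after seeing the data, 20 called more genes lower than higher. The exceptions were the paired fits without replicate 2 (114 lower, 130 higher) and without replicate 3 (457 and 796), and edgeR with the replicate block without replicate 3 (499 and 520, added). Against 45 lower and 4 higher in the paired fit, the fit with no replicate block gave 60 and 23, so rises were 27.7% of calls in place of 8.16%. DESeq2 with the replicate block gave 157 and 91 (36.7% rises), a mean of at least 50 as the filter 28 and 0, and all 12 libraries 168 and 76, or 233 and 183 without DMSO replicate 3 (added). The regularized log2 values gave 13 rises, a pseudocount of 0.5 gave 2, and no filter gave 0. edgeR with no replicate block and without DMSO replicate 3 gave 85 and 48 (added). Leaving out a replicate number from the paired fit gave 114 to 457 lower and 97 to 796 higher genes. Leaving out a library with no replicate block gave 19 to 76 lower and 0 to 59 higher, with 22 lower without DMSO replicate 2 and 25 without U0126 replicate 3. The paired fits without a replicate number have 1 residual degree of freedom and rest mainly on a spread estimated across genes. The limma fit of this kind without replicate 3 gave the smallest adjusted p-values of KH.C13.28, KH.L167.5 and KH.L154.32. All 45 falls were called in 9 of the 23 alternatives, among them edgeR and DESeq2 with the block. No named gene changed direction in any alternative. KH.C11.577 kept its call in all 23, KH.C13.28 in 12, KH.L167.5 in 15 and KH.L154.32 in 16. The cause of these differences was not tested. At this depth a normalized count under 2.42 to 3.29, depending on the library, could not be told from 0.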
